A study of Mus musculus with 24 samples.

Results

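10 genes that mark endothelial cells, the cells that line blood and lymph vessels, were followed through mouse colon messenger RNA. They were taken by symbol, Pecam1, Tek, Tie1, Eng, Cdh5, Kdr, Flt1, Emcn, Cldn5 and Plvap, and are 10 of the 23329 gene symbols in the deposited files. All 10 passed the filter on low counts in every fit. The study asked how caNrf2, an activated version of the stress-response transcription factor NRF2, dextran sulfate sodium (DSS, a chemical that injures the colon lining of mice) and both together change colon expression. All mice were C57Bl/6 and all carried VilCre, a Cre recombinase driven by the villin promoter, which is active in gut epithelium and not in endothelium. Colon wall came from caNrf2 mice (written VilCre-CMVcaNrf2 in the labels) with DSS, from VilCre control mice with DSS, from untreated caNrf2 mice and from untreated control mice. Epithelial cells came from untreated caNrf2 mice and untreated control mice. Each of these 6 groups had 4 libraries, although the series text speaks of 3 per condition, and the labels do not say that replicates were separate animals. The p-values therefore measure only the spread between these libraries, which may be technical. The labels used here state neither the age of the mice nor the dose and duration of DSS.

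Blood vessels of the gut carry absorbed nutrients away and admit leukocytes into the mucosa, and many of the mucosal capillaries have fenestrae, small pores closed by a diaphragm. Endothelial cells take growth signals through VEGF receptors and vessel-stabilising signals through the angiopoietin receptor, and they hold to each other through adherens and tight junctions. Several of the genes are not strictly endothelial: Pecam1 is also made by platelets and leukocytes, and Eng by some stromal cells and macrophages.

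Library totals ran from 20232317 to 154335999 estimated counts in wall and from 6683785 to 15399870 in epithelial cells. The members together drew 3522 to 25002 counts per wall library and 105 to 1197 per epithelial library, so epithelial values are far less precise. Levels are given as TPM (a transcript's share of a library, corrected for transcript length and scaled to a fixed total), and fold changes come from the counts. Nfe2l2, which encodes NRF2, ran at 231 to 370 CPM (counts scaled for library size) in caNrf2 epithelial cells, against 139 to 203 CPM in control ones, but the difference did not pass the test (log2 0.88 ± 0.19, edgeR's adjusted p = 0.219). In DSS-treated wall it ran at 166.4 to 284.7 CPM with caNrf2, against 110.6 to 167.9 CPM in controls (0.62 ± 0.19, edgeR's adjusted p = 0.957). In untreated wall it ran at 147.6 to 238.5 CPM with caNrf2, against 99.51 to 146.2 CPM in controls (0.65 ± 0.19, edgeR's adjusted p = 0.199). Epithelial libraries caNrf2 replicate 1 and control replicate 3 stood apart from the other 6. The members summed to 4.88 TPM in that caNrf2 library and 4.19 TPM in that control library, and 10 epithelial genes summed to 43500 and 39700 TPM. In the other 3 libraries of each genotype the epithelial genes averaged 15900 TPM with caNrf2 and 11800 TPM in controls.

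RefSeq promoter sequences for 7 of the 10 genes were used (250 bases before the start, build GRCm38.p6), and those of Pecam1, Cdh5 and Plvap were not analysed here. ETS factors such as ERG and FLI1 are known regulators of endothelial genes, so the promoters were searched on both strands for AGGAAG. This is a single form of the ETS-type site, and other forms were not searched. 4 are shown because they span the responses described below: Tek had the highest fitted DSS response in both genotypes and Emcn the lowest, Eng had the same fitted value in both, and Flt1 was the least abundant member. Capitals mark AGGAAG or its reverse complement CTTCCT. Tek lies at chr4:94739039-94739288 on the plus strand, Emcn at chr3:137340828-137341077 on the plus strand, Eng at chr2:32646345-32646594 on the plus strand and Flt1 at chr5:147726012-147726261 on the minus strand.
Tek: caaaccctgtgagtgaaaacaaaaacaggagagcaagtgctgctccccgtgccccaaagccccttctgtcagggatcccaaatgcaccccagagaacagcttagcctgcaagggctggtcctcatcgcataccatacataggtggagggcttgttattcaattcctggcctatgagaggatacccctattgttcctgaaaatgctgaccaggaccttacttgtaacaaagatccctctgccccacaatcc
Emcn: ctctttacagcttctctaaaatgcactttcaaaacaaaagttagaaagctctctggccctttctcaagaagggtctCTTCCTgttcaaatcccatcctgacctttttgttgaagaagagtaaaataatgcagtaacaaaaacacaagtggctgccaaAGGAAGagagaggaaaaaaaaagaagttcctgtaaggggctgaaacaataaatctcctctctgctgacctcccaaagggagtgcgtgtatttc
Eng: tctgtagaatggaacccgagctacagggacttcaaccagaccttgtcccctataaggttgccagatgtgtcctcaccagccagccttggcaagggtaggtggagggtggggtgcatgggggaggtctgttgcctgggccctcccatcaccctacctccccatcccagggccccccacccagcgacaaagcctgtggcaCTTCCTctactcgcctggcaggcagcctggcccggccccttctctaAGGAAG
Flt1: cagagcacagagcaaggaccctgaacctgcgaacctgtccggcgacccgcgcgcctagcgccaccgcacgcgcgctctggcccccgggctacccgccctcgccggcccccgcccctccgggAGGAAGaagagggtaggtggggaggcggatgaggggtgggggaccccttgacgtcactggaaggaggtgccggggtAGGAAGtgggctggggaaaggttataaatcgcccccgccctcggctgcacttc
AGGAAG was present in 4 of the 7 promoters, those of Tie1, Eng, Flt1 and Emcn, and in 29.5% of 32851 mouse promoters of the same length. The GATA-type letters AGATAA were in 0 of the 7, against 10.0% of all promoters, and the KLF- or SP-type letters GGGCGG in 3 of the 7, against 32.7%. The Tek window held none of these 3 strings of letters, while the Emcn and Eng windows each held AGGAAG 2 times. A window without AGGAAG may still hold another form of the ETS-type site. These matches describe letters in a short window and are not evidence of binding.

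In untreated wall the order of the levels was nearly the same in both genotypes. Plvap, which encodes the protein of fenestral diaphragms, was the most abundant per length, at 37.4 ± 6.14 TPM in caNrf2 wall and 35.1 ± 5.09 TPM in control wall (SD, n = 4 each, as for all means below). Pecam1 was second at 22.3 ± 4.03 TPM in caNrf2 wall and 21.4 ± 4.44 TPM in control wall. Eng came next with 10.0 ± 1.19 TPM in caNrf2 wall and 11 ± 3.25 TPM in control wall. Each of the 4 libraries of both groups had Plvap above Pecam1 and Pecam1 above Eng. Eng and Emcn were not separated: Eng was above Emcn in 2 of 4 caNrf2 libraries and 3 of 4 control libraries. Cdh5 and Cldn5 also overlapped, at 6.83 ± 1.05 and 6.81 ± 2.25 TPM in caNrf2 wall. Kdr, Tek and Flt1 were lowest, between 1.90 and 2.60 TPM in group means, and Kdr was above Tek in 3 of 4 libraries of each genotype. With DSS, Plvap and Pecam1 stayed first and second in all 8 libraries, and Flt1 stayed last in both group means.

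**Figure D1:**
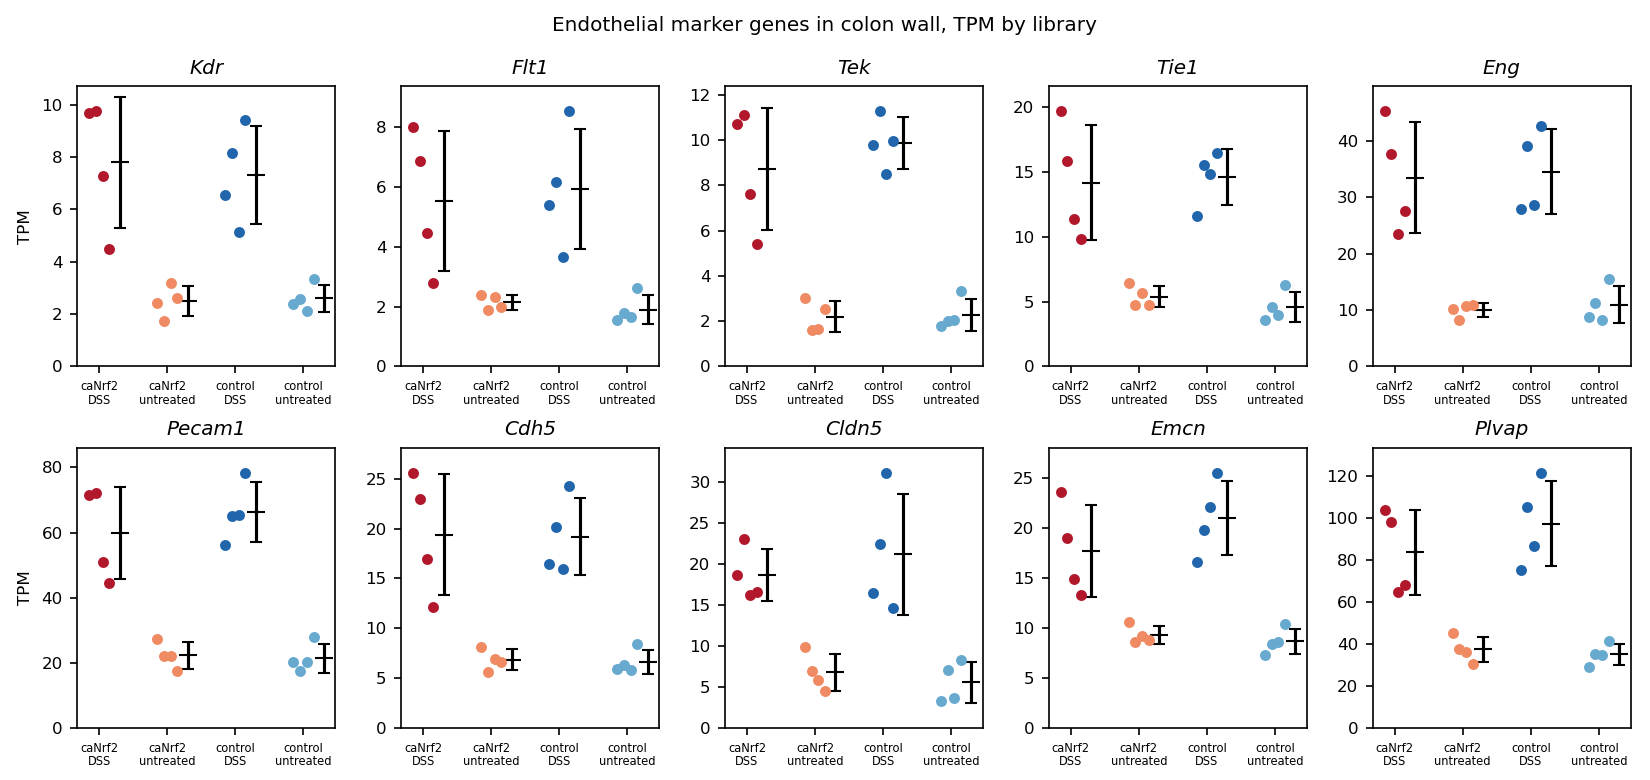
TPM of each endothelial marker gene (vertical axes, each starting at 0) in the 16 colon wall libraries, by genotype and treatment. Points are libraries and bars the mean ± SD of 4. In each panel all DSS libraries lie above all untreated libraries of the same genotype.

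All 10 genes rose with DSS in both genotypes, and for each of them the 4 DSS libraries lay above the 4 untreated libraries. The fitted log2 fold changes ran from 0.74 to 1.79 in caNrf2 wall, with a median of 1.26, and from 1.15 to 1.99 in control wall, with a median of 1.51. Over all 16074 genes tested the medians were 0.01 and 0.06. Of those genes, 23.1% were higher with DSS by edgeR's quasi-likelihood test in caNrf2 wall and likewise 23.1% in control wall. By the same test 18.1% were lower with DSS in caNrf2 wall and 16.1% in control wall. Groups that did not overlap, with DSS higher, were found for 18.3% of genes in caNrf2 wall and 18.7% in control wall. TPM and scaled counts are shares of a library. In these bulk samples, changes in endothelial cell number, in RNA per cell and in the RNA of other cells cannot be told apart.

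Kdr (chr5:75933270-75978428, minus strand, mm10) encodes the main signalling receptor for VEGF on endothelium. In caNrf2 wall it stood at 9.70, 9.74, 7.26 and 4.48 TPM with DSS, against 2.44, 1.75, 3.17 and 2.62 TPM untreated. In control wall it stood at 6.54, 8.16, 5.15 and 9.43 TPM with DSS, against 2.38, 2.56, 2.11 and 3.34 TPM untreated. The lowest DSS library of each genotype was still above every untreated one of that genotype. Its log2 fold change was 1.44 ± 0.20 in caNrf2 wall and 1.37 ± 0.20 in control wall (SE; edgeR's adjusted p = 0.000109 and 0.000187).

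Flt1 (chr5:147562196-147725988, minus strand) encodes a VEGF receptor that binds the ligand tightly and signals weakly. The files list a single transcript for it, so a shorter soluble form was not measured apart. DSS-treated caNrf2 wall had 8.01, 6.86, 4.45 and 2.80 TPM, against 2.39, 1.90, 2.32 and 1.97 TPM in untreated caNrf2 wall. DSS-treated control wall had 5.40, 6.15, 3.66 and 8.52 TPM, against 1.55, 1.78, 1.64 and 2.61 TPM in untreated control wall. The DSS libraries spread widely, and caNrf2 replicate 4 came close to the highest untreated library. The log2 fold change was 1.14 ± 0.23 in caNrf2 wall and 1.52 ± 0.23 in control wall (edgeR's adjusted p = 0.00119 and 0.000246).

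Tek (chr4:94739300-94874939, plus strand) encodes TIE2, the receptor for angiopoietins. With DSS it reached 10.7, 11.1, 7.63 and 5.43 TPM in caNrf2 wall, against 3.02, 1.61, 1.66 and 2.52 TPM without. For controls the values were 9.79, 11.3, 8.49 and 9.96 TPM with DSS, against 1.78, 1.99, 2.06 and 3.34 TPM untreated. The 4 control DSS libraries were close together and far from the untreated ones. Tek had the highest fitted response of the 10 in both genotypes, log2 1.79 ± 0.21 in caNrf2 wall and 1.99 ± 0.21 in control wall (edgeR's adjusted p = 5.15e-05 and 2.76e-05). Its median share of the members' summed TPM was 3.4% with DSS and 2.0% untreated in caNrf2 wall, and 3.3% with DSS and 2.2% untreated in control wall.

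Tie1 (chr4:118471191-118489849, minus strand) encodes the partner receptor of TIE2, which has no well-defined ligand of its own. In caNrf2 wall it was at 19.7, 15.8, 11.4 and 9.88 TPM with DSS, against 6.41, 4.75, 5.70 and 4.71 TPM untreated. In control wall it was at 11.6, 15.5, 14.9 and 16.5 TPM with DSS, against 3.58, 4.58, 3.94 and 6.26 TPM untreated. The groups were well apart in both genotypes. The log2 fold change was 1.2 ± 0.16 in caNrf2 wall and 1.56 ± 0.16 in control wall (edgeR's adjusted p = 0.000102 and 2.76e-05).

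Eng (chr2:32646595-32682669, plus strand) encodes endoglin, a co-receptor for BMP and TGF-beta ligands whose loss in humans causes hereditary haemorrhagic telangiectasia. The caNrf2 wall had 45.2, 37.7, 23.4 and 27.6 TPM with DSS, against 10.2, 8.29, 10.8 and 10.8 TPM untreated. The control wall had 27.8, 39.1, 28.6 and 42.7 TPM with DSS, against 8.82, 11.3, 8.30 and 15.4 TPM untreated. The highest untreated value, in control replicate 4, remained below all 8 DSS values. The fitted change was the same in both genotypes, log2 1.55 ± 0.17 each (edgeR's adjusted p = 3.84e-05 in caNrf2 wall and 4.46e-05 in control wall).

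Pecam1 (chr11:106654218-106715281, minus strand) encodes CD31, an adhesion molecule of endothelial junctions. It was at 71.7, 72.0, 51.0 and 44.4 TPM in DSS-treated caNrf2 wall, against 27.4, 22.1, 22.1 and 17.5 TPM in untreated caNrf2 wall. It was at 56.1, 65.2, 65.4 and 78.3 TPM in DSS-treated control wall, against 20.2, 17.5, 20.3 and 27.8 TPM in untreated control wall. The log2 fold change was 1.23 ± 0.15 in caNrf2 wall and 1.5 ± 0.15 in control wall (edgeR's adjusted p = 6.23e-05 and 2.21e-05). Of its 2 listed transcripts the shorter lacks an exon of 57 bases (chr11:106671742-106671798). The shorter one held 43.6% ± 2.71 of Pecam1 TPM with DSS and 39.4% ± 6.48 untreated in caNrf2 wall, and 41.9% ± 3.21 with DSS and 44.0% ± 1.36 untreated in control wall. These shares are the authors' estimates, their ranges overlapped, and both transcripts were higher in group mean with DSS.

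Cdh5 (chr8:104101625-104144502, plus strand) encodes VE-cadherin of the adherens junction. In caNrf2 wall the values were 25.6, 22.9, 16.9 and 12.2 TPM with DSS, against 8.13, 5.59, 6.95 and 6.64 TPM untreated. In control wall the values were 16.4, 20.1, 15.9 and 24.3 TPM with DSS, against 5.89, 6.32, 5.81 and 8.45 TPM untreated. The DSS and untreated libraries were clearly separated in both genotypes. The log2 fold change was 1.30 ± 0.15 in caNrf2 wall and 1.41 ± 0.15 in control wall (edgeR's adjusted p = 5.18e-05 and 4.17e-05).

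Cldn5 (chr16:18776847-18778262, plus strand, a single exon) encodes the claudin of endothelial tight junctions. DSS-treated caNrf2 wall had 18.6, 23.1, 16.2 and 16.6 TPM, against 9.85, 6.93, 5.89 and 4.55 TPM in untreated caNrf2 wall. DSS-treated control wall had 16.5, 22.4, 31.0 and 14.6 TPM, against 3.28, 7.04, 3.64 and 8.24 TPM in untreated control wall. Replicates scattered more for Cldn5 than for the junction genes above, and its standard errors were the highest of the 10. The log2 fold change was 1.29 ± 0.30 in caNrf2 wall and 1.86 ± 0.31 in control wall (edgeR's adjusted p = 0.00355 and 0.000456).

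Emcn (chr3:137341078-137431069, plus strand) encodes endomucin, a sialomucin of capillary and venous endothelium. It was at 23.6, 19.04, 14.9 and 13.3 TPM in caNrf2 wall with DSS, against 10.6, 8.57, 9.25 and 8.82 TPM untreated. Control wall had 16.7, 19.8, 22.1 and 25.5 TPM with DSS, against 7.26, 8.41, 8.60 and 10.4 TPM untreated. Emcn had the lowest fitted response of the 10 in both genotypes, log2 0.74 ± 0.16 in caNrf2 wall and 1.15 ± 0.16 in control wall (edgeR's adjusted p = 0.00226 and 0.000163). Its median share of the members' summed TPM was 6.6% with DSS and 8.8% untreated in caNrf2 wall, and 7.1% with DSS and 8.7% untreated in control wall.

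Plvap (chr8:71497753-71511769, minus strand) was at 104, 98.2, 64.8 and 68.1 TPM in DSS-treated caNrf2 wall, against 45.3, 37.6, 36.3 and 30.4 TPM in untreated caNrf2 wall. It was at 75.4, 105, 86.9 and 122 TPM in DSS-treated control wall, against 28.8, 35.3, 34.8 and 41.3 TPM in untreated control wall. Its median share of the members' summed TPM was 30.9% with DSS and 35.4% untreated in caNrf2 wall, and 32.4% with DSS and 35.5% untreated in control wall. The log2 fold change was 0.97 ± 0.16 in caNrf2 wall and 1.34 ± 0.16 in control wall (edgeR's adjusted p = 0.000341 and 7.72e-05). Among the untreated control libraries, replicate 4 held the highest value of all 10 genes, and among the DSS-treated caNrf2 libraries replicate 4 held the lowest value of 7.

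**Figure D2:**
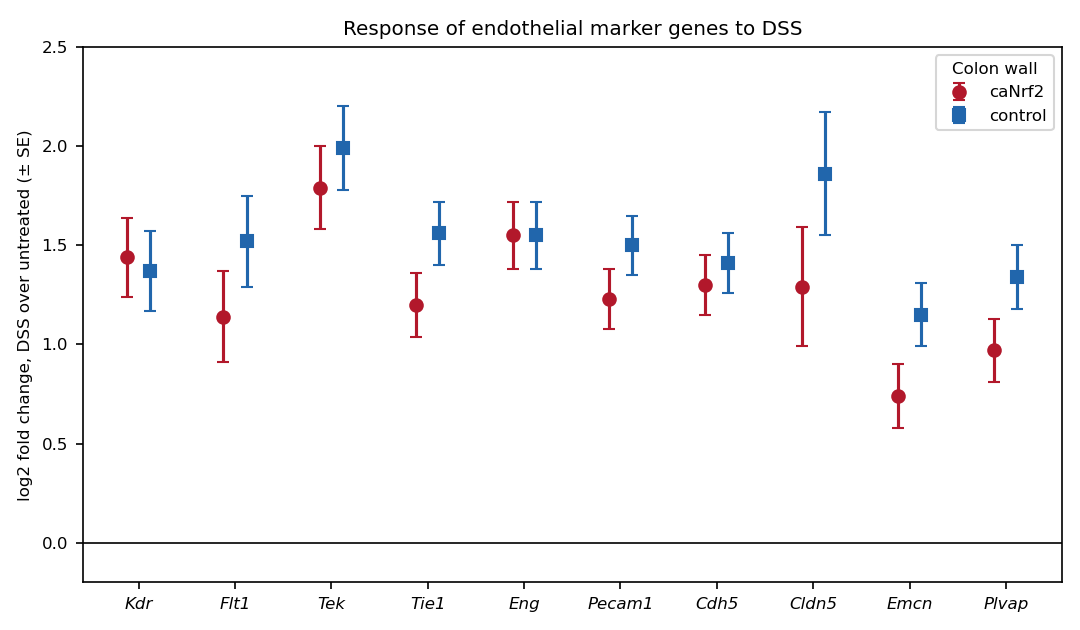
Log2 fold change of DSS-treated over untreated colon wall (vertical axis) for each endothelial marker gene, in caNrf2 wall (circles) and control wall (squares). Bars are ± SE from edgeR's quasi-likelihood test on 16 libraries. All points lie above 0, from 0.74 for Emcn to 1.99 for Tek.

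Most other endothelial genes rose as well. Of 20 further pan-endothelial genes, 18 rose with DSS in caNrf2 wall (median log2 1.22) and 18 in control wall (median 1.29). Mmrn2, a matrix protein of vessels, rose by 1.63 ± 0.16 in caNrf2 wall and 1.72 ± 0.16 in control wall, and Vwf, the von Willebrand clotting factor, by 1.69 ± 0.20 in each. Cd34, a sialomucin that fibroblasts also carry, rose by 0.86 and 0.97. Clec14a, an endothelial lectin, was singled out after its values were seen: it fell by 0.70 on the log2 scale in caNrf2 wall and did not pass in control wall (0.19). Gpihbp1, which holds lipoprotein lipase on capillaries, was also chosen after seeing its values and passed in neither genotype (0.16 with caNrf2 and 0.43 in controls).

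Among 16 endothelial transcription factors, 10 rose in caNrf2 wall (median log2 1.0), and in control wall 9 rose and Ets2 fell (median 0.91). Ets2, named after its values were seen, kept that call (log2 -0.46) in only 8 of 15 alternative settings. Erg, an ETS factor of endothelium, rose by 1.48 ± 0.26 in caNrf2 wall and 1.52 ± 0.26 in control wall, and Sox7, a vascular SOX factor, by 1.70 and 1.26. Klf4, which epithelium also makes at a high level, did not pass (-0.20 and -0.34). Of 11 VEGF and angiopoietin ligands and co-receptors, 5 rose in caNrf2 wall (median 1.12) and 7 in control wall (median 1.14). The receptor Flt4, chiefly lymphatic in the adult, rose by 1.72 and 1.78, and the co-receptor Nrp1 by 1.25 and 1.54. The ligand Vegfa did not pass in either genotype, with log2 values of -0.07 ± 0.23 and 0.03 ± 0.23.

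Notch and tip cell genes were mixed. Of 12 tested, 3 rose and 1 fell in caNrf2 wall (median log2 0.21), and 4 rose in control wall (median 0.49). The rises were near the share of all genes tested that rose, 23.1% in each genotype. Hey2, a Notch target, rose by 1.22 in caNrf2 wall and 1.75 in control wall, and Aplnr, the apelin receptor, by 1.42 and 2.0. Hes1, a Notch target that is abundant in epithelium, fell by 0.64 on the log2 scale in caNrf2 wall and did not pass in control wall (-0.52), and the call in caNrf2 wall held in only 8 of 15 alternative settings. Of 11 BMP and TGF-beta genes tested out of 13 listed, 7 rose in each genotype (medians 0.83 and 0.81), among them the TGF-beta co-receptor Tgfbr3 by 1.72 and 1.84 and the ligand Bmp6 by 1.27 and 1.70. Id1, a BMP target, was 1 of 3 that fell in caNrf2 wall, with a log2 fold change of -1.08 ± 0.33, against -0.05 ± 0.33 in control wall. The Id1 call was lost without DSS-treated caNrf2 replicate 2 (edgeR's adjusted p = 0.0506).

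Of 11 genes for leukocyte adhesion to endothelium, 7 rose in each genotype (median log2 1.59 in caNrf2 wall and 1.37 in control wall). Darc (now Ackr1), a chemokine receptor of venules, rose by 1.82 and 1.90, and Jam2, a junctional adhesion molecule, by 1.36 and 1.37. F11r, a tight junction gene that epithelium also makes, did not pass (-0.01 and -0.04). All 9 lymphatic endothelial genes rose in caNrf2 wall (median 1.80) and 8 in control wall (median 1.53). Ccl21a, the chemokine of lymphatic vessels, rose by 2.34 ± 0.22 in each genotype (it has near-identical copies that may share its reads), and Reln, a secreted glycoprotein, by 2.03 and 1.94.

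The markers of other cells that moved beside them were as follows. Of 10 pericyte genes, 8 rose in caNrf2 wall and 7 in control wall (medians 1.30 and 1.2), for example the PDGF receptor Pdgfrb by 1.11 and 1.32 and the potassium channel subunit Abcc9 by 2.69 and 2.06. Des, which encodes desmin and is far the most abundant of that list, did not pass (0.58 and 0.46). All 10 fibroblast genes rose in each genotype (median 1.40 each), and 8 of 10 enteric glia genes did (medians 1.29 and 1.14). Among fibroblast genes, the matrix genes Lum, Fbln2 and Dcn rose by 1.60, 1.48 and 1.51 in caNrf2 wall and by 1.62, 1.37 and 1.5 in control wall. Among glia genes, the transcription factor Sox10 rose by 1.38 and 1.85, while Erbb3 did not pass (-0.14 and 0.54). Smooth muscle genes passed in 5 of 10 cases in caNrf2 wall and 4 of 10 in control wall (medians 0.82 and 0.60). Of 10 epithelial genes, 1 fell in caNrf2 wall and 3 in control wall (medians -0.20 and -0.29), where 18.1% and 16.1% of all genes tested fell. The actin-binding gene Lmod1 rose by 1.03 and 1.28 and the cofactor Myocd by 1.08 and 1.07, while Tagln did not pass (0.71 and 0.51). The epithelial transcription factor Cdx1 fell by 0.74 and 0.78 on the log2 scale, the keratin gene Krt18 had -0.43, which did not pass, and -1.06, which did, and the lectin gene Lgals4 did not pass (-0.18 and 0.02). Leukocyte genes, which matter for Pecam1, rose in 5 of 10 and 6 of 10 cases (medians 0.90 and 1.01). S100a9, a neutrophil gene, rose by 6.41 and 4.55 and Cd68, a macrophage gene, by 1.39 and 2.21, while Cd52 did not pass (0.38 and 0.23). The summed TPM of the leukocyte genes ran from 270 to 527 in DSS-treated caNrf2 wall against 90.6 to 242 untreated, and from 199 to 555 in DSS-treated control wall against 89.9 to 323 untreated. Platelet and red cell genes were taken as 1 list, and the calls were not split between the 2 kinds. Against 23.1% of all genes tested, 6 of the 9 tested in this list rose in each genotype. Their summed TPM was 554 to 9390 in DSS-treated caNrf2 wall against 66.2 to 215 untreated, and 358 to 34200 in DSS-treated control wall against 56.6 to 145 untreated, led by the haemoglobin gene Hba-a1, which may share reads with its copy. Hba-a1 rose by 5.24 and 7.53, and Alas2, a haem synthesis gene of red cells, by 6.22 and 7.76. The DSS libraries scattered widely: Hba-a1 was at 2910 ± 3410 TPM with caNrf2 and 8430 ± 13500 TPM in controls. Alas2 was at 28.1 ± 36.3 and 85.4 ± 147 TPM. The part of these cells in the members' rise was not tested.

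**Figure D3:**
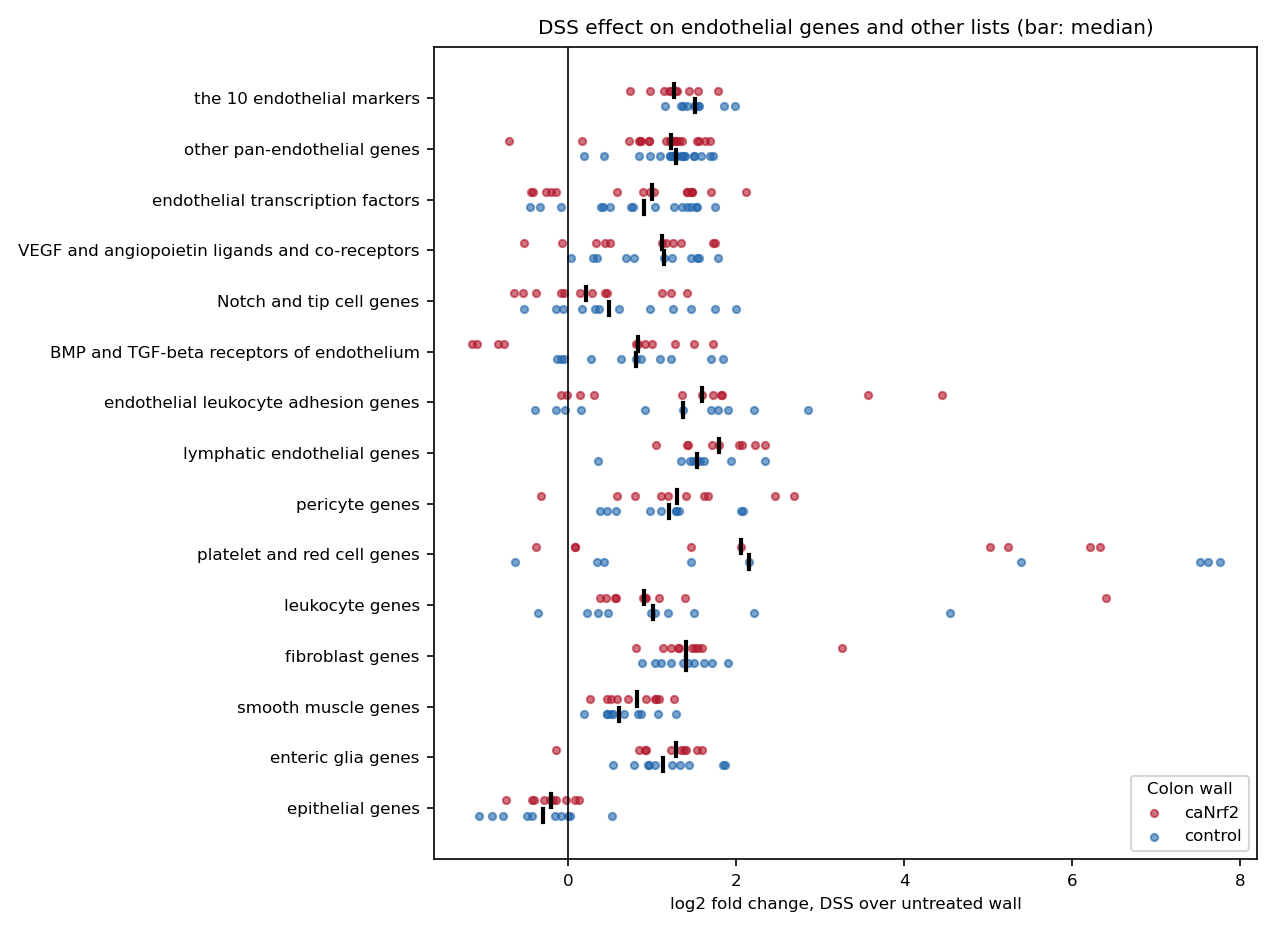
Log2 fold change of DSS-treated over untreated wall (horizontal axis) for the endothelial marker genes and 14 other gene lists. Each point is a gene, with caNrf2 wall above control wall in each list, and black bars are medians. The endothelial marker medians are 1.26 in caNrf2 wall and 1.51 in control wall, and the epithelial list is the only one with medians below 0.

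Genotype moved none of the 10 genes past the threshold, in wall or in epithelial cells. In DSS-treated wall edgeR called 0 of 10, with 0 at an unadjusted p below 0.05 and 0 by DESeq2, where edgeR called 0.0933% of 16074 genes, 2.53% had an unadjusted p below 0.05, and DESeq2 called 43 genes. The fitted caNrf2-over-control values ran from -0.29 to 0.04, and the 95% intervals (from the SE and the fit's degrees of freedom) reached from -0.84 to 0.45. The smallest p was that of Emcn, at 17.7 ± 4.62 TPM in caNrf2 wall and 21 ± 3.75 TPM in control wall (log2 -0.29 ± 0.16, edgeR's adjusted p = 1). Plvap followed with -0.25 ± 0.16 and Pecam1 with -0.19 ± 0.15. Of the 10 fitted values, 9 were below 0, and the genotypes overlapped for all 10 genes. Over all genes, caNrf2 libraries lay wholly above control libraries for 0.765% and wholly below for 0.908%.

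In untreated wall edgeR again called 0 of 10, with 0 at an unadjusted p below 0.05 and 0 by DESeq2, where edgeR called 0.224% of genes, 10.5% had an unadjusted p below 0.05, and DESeq2 called 235 genes. The values ran from -0.08 to 0.36, with intervals from -0.46 to 1.0. Tie1 had the smallest p, at 5.39 ± 0.818 TPM in caNrf2 wall and 4.59 ± 1.19 TPM in control wall (log2 0.26 ± 0.16, edgeR's adjusted p = 0.613). The next were Cldn5 at 0.36 ± 0.30 and Flt1 at 0.21 ± 0.22. Here 7 of the 10 were above 0.

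The difference between the genotypes in their DSS response was fitted below 0 for 8 of 10 genes, meaning a smaller DSS fold in caNrf2 wall, but it passed for 0 of 10 by edgeR, with 0 at an unadjusted p below 0.05 and 0 by DESeq2. Over all genes edgeR called 0% of 16074 for this difference, 7.96% had an unadjusted p below 0.05, and DESeq2 called 40 genes. The deposited names of the replicate 4 wall libraries begin with another number, whose meaning the labels do not state. Without those 4 libraries edgeR called 98 genes for this difference and 404 for the genotype effect in untreated wall, and without untreated control replicate 4 alone it called 93 and 320, with 0 members in each case. The values ran from -0.57 to 0.08. Emcn had the smallest p (log2 -0.41 ± 0.23, 95% interval -0.89 to 0.07, edgeR's adjusted p = 0.73), followed by Plvap at -0.36 ± 0.22 and Tie1 at -0.37 ± 0.23. A p above the threshold does not show that the genotypes responded alike, and the intervals allow differences of this size.

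**Figure D4:**
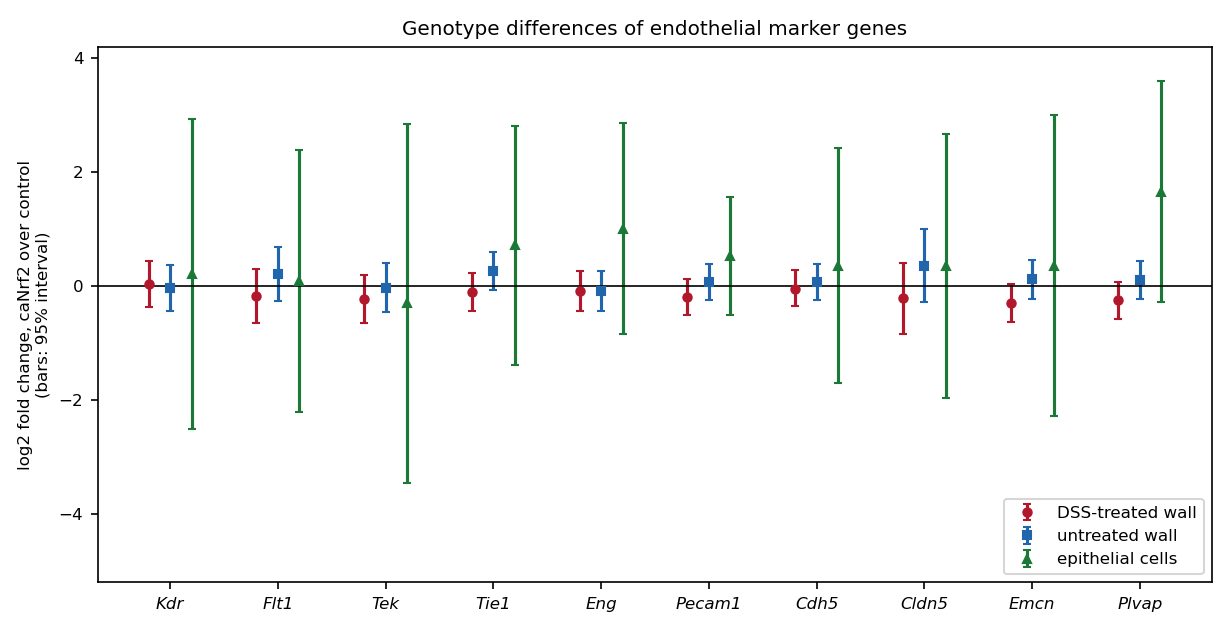
Log2 fold change of caNrf2 over control (vertical axis) for each endothelial marker gene in DSS-treated wall (circles), untreated wall (squares) and epithelial cells (triangles). Bars are 95% intervals computed from edgeR's fits. All intervals include 0, and those of epithelial cells are the widest, up to -3.45 to 2.85 for Tek.

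In epithelial cells the members were detected in 6 of the 8 libraries, except Tek in caNrf2 replicate 3, and were low in the other 2. Plvap stood at 1.59, 17.8, 12.5 and 46.8 TPM in the caNrf2 libraries and at 6.23, 10.3, 0.84 and 8.31 TPM in the control libraries. Pecam1 stood at 2.34, 7.74, 12.3 and 12.5 TPM with caNrf2 and at 6.74, 8.80, 2.47 and 6.55 TPM in controls. Kdr stood at 0.04, 2.02, 1.43 and 4.67 TPM with caNrf2 and at 1.38, 3.81, 0 and 2.10 TPM in controls. The low libraries, caNrf2 replicate 1 and control replicate 3, were the lowest of their group for each of these genes. Tek was at 0 counts in caNrf2 replicates 1 and 3, Emcn in caNrf2 replicate 1 and Kdr in control replicate 3. A count of 0 there allows up to 3 counts, which is 0.195 CPM in caNrf2 replicate 1, 0.242 in caNrf2 replicate 3 and 0.21 in control replicate 3 (counting error only). In the low libraries Pecam1 made up more of the members than elsewhere, at 48.0% of the members' summed TPM in the caNrf2 one and 58.9% in the control one, against medians of 21.5% and 22.0% in untreated wall of these genotypes.

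**Figure D5:**
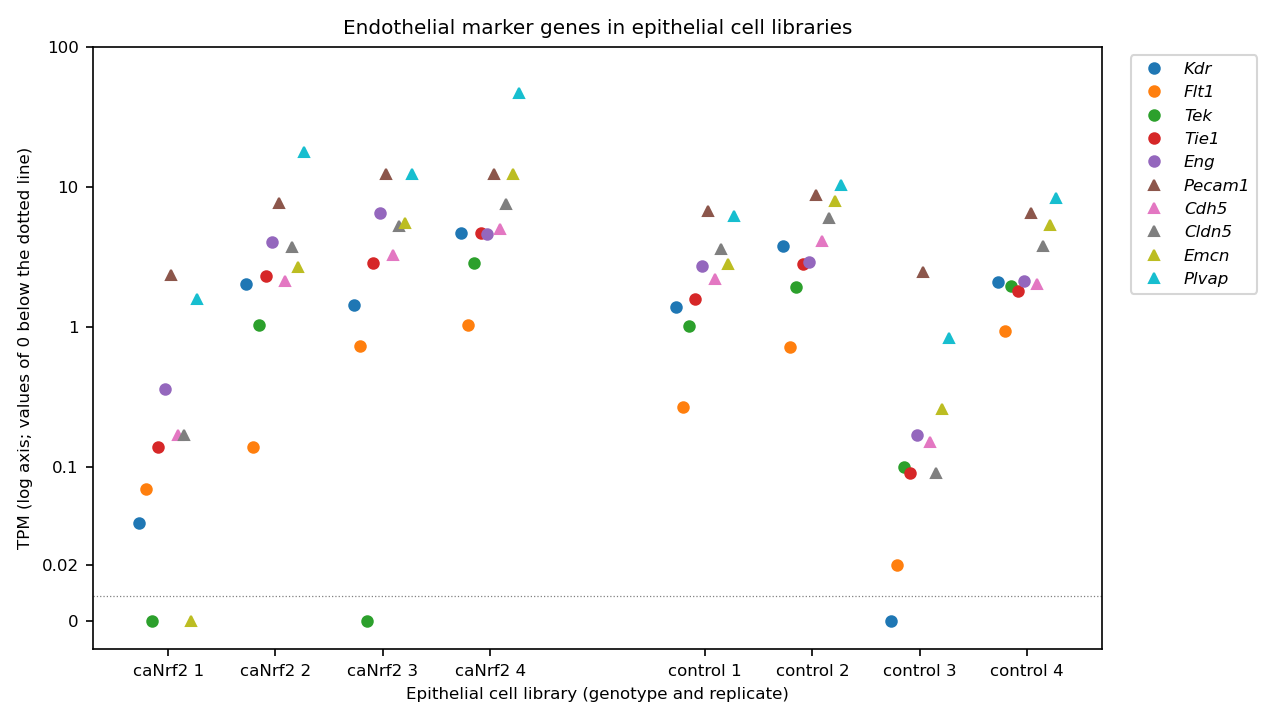
TPM of the endothelial marker genes (vertical log axis, with 0 drawn below the dotted line) in each epithelial cell library. Each point is a gene in a library. In caNrf2 replicate 1 and control replicate 3 most genes lie below 1 TPM, while Pecam1 is at 2.34 and 2.47 TPM.

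Relative to untreated wall, all 10 genes were fitted lower in epithelial cells of both genotypes, but only some passed. In caNrf2 mice 2 of 10 were lower, Pecam1 (log2 -1.38 ± 0.36, edgeR's adjusted p = 0.00538) and Flt1 (-2.20 ± 0.70, adjusted p = 0.018), where 23.5% of 15073 genes were lower. In control mice 4 of 10 were lower, where 19.7% of genes were: Pecam1 (-1.80 ± 0.37, edgeR's adjusted p = 0.00105), Eng (-2.48 ± 0.61, 0.00415), Flt1 (-2.04 ± 0.70, 0.0299) and Plvap (-2.49 ± 0.66, 0.00711). The epithelial and wall libraries did not overlap, with wall higher, for 5 of 10 genes in caNrf2 mice and 7 of 10 in controls, against 23.1% and 21.1% of all genes. Kdr differed least, by -0.35 ± 0.86 in caNrf2 mice and -0.54 ± 0.87 in controls, neither past the threshold.

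Leaving out the 2 low libraries raised these counts to 5 of 10 in caNrf2 mice and 6 of 10 in control mice, and the share of all 15399 genes tested that was lower to 30.8% and 26.6%. In caNrf2 mice the count was 1 without epithelial replicate 2 and 5 without epithelial replicate 4. Over all genes edgeR called 5934 of 15364 without replicate 2 (2642 higher, the rest lower). Without replicate 4 it called 6352 of 15368 (2840 higher, the rest lower). Flt1 in caNrf2 mice missed the threshold without replicate 2 (edgeR's adjusted p = 0.0524). In control mice Flt1 missed it without epithelial replicate 1 (0.0853) or without wall replicate 4 (0.0594). Without both low libraries Kdr in caNrf2 cells was level with wall (log2 0.02 ± 0.38).

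In the 6 epithelial libraries other than the low ones, the TPM of each gene was set against its mean in untreated wall of the same genotype. These percentages are descriptions without a test. The members' summed TPM averaged 62.3% of wall in the 3 caNrf2 libraries and 37.7% in the 3 control libraries, and the median member was at 60.2% with caNrf2 and 43.4% in controls. The median of the 20 other pan-endothelial genes was close to that, at 58.6% and 42.6%. The 9 lymphatic endothelial genes had medians of 345% and 190%, with 7 of 9 above wall in each genotype. Against wall, only 2 of these 9 passed as higher in each genotype, Nts and Prox1, and 2 as lower, Pdpn and Stab2 (all named after their values were seen). These counts were near the shares of all genes tested: 20% higher and 23.5% lower with caNrf2, and 18.9% higher and 19.7% lower in controls. Whether epithelial cells themselves make some of these 9 genes was not tested. Their summed TPM, 158% and 133% of wall, was mostly Ccl21a. Medians were low for smooth muscle genes (0.63% with caNrf2 and 0.432% in controls), pericyte genes (5.4% and 3.57%), enteric glia genes (5.07% and 2.92%), fibroblast genes (12.2% and 17.2%) and leukocyte genes (20.5% and 21.2%). Summed TPM gives another picture where 1 gene dominates. Enteric glia genes summed to 73.3% and 79.3% of wall, led by Erbb3, which epithelium also makes. The pericyte sum of 1.12% and 0.742% was set by the muscle gene Des, which made up 93.6% and 93.2% of that list's TPM in wall, while Pdgfrb was at 24.2% and 32.8%. The highest in that list was Pdgfb (94.0% and 120%), which encodes a ligand that endothelial cells make and was named after its values were seen. Platelet and red cell genes summed to 108% and 93.2%, with medians of 19% and 75.0%. Epithelial genes themselves summed to 71.2% and 65.9% of wall in these libraries, with medians of 72.3% and 71.6%. Single members ranged widely in this measure. Kdr was at 108% of wall in caNrf2 cells and 93.6% in control cells, and Cldn5 at 80.8% and 80.0%, while Flt1 was at 29.5% and 33.8%. Eng was at 50.6% in caNrf2 cells and 23.6% in control cells, and Plvap at 68.6% and 23.6%. How endothelial RNA came into these libraries was not tested, and the labels used here do not state how the epithelial cells were separated.

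Between the genotypes, epithelial cells gave 0 of 10 calls by edgeR, with 0 at an unadjusted p below 0.05 and 0 by DESeq2. Over all genes edgeR called 0% of 12941 there, 10.4% had an unadjusted p below 0.05, and DESeq2 called 215 genes. Plvap had the smallest p, at 19.6 ± 19.3 TPM in caNrf2 cells and 6.43 ± 4.08 TPM in control cells (log2 1.66 ± 0.86, 95% interval -0.28 to 3.6, edgeR's adjusted p = 0.561). The 2 groups overlapped, and the SD in caNrf2 cells was about the mean. Eng followed with 1.01 ± 0.82 and Pecam1 with 0.53 ± 0.46. Without the low libraries the values were 1.68 ± 0.47 for Plvap, 1.0 ± 0.33 for Eng and 0.60 ± 0.25 for Pecam1, with edgeR's adjusted p of 0.0618, 0.105 and 0.184, where edgeR called 6.43% of 12994 genes. The genotype effect in epithelial cells minus that in untreated wall passed for 0 of 10 by edgeR, with 0 at an unadjusted p below 0.05 and 0 by DESeq2. For that difference edgeR called 0% of 15073 genes, 7.98% had an unadjusted p below 0.05, and DESeq2 called 66 genes. Its values ran from -0.33 to 1.51, with Plvap at 1.51 ± 0.89, Eng at 1.06 ± 0.82 and Pecam1 at 0.42 ± 0.50.

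The members followed each other closely across the wall libraries. Over the 16 libraries, which share the DSS contrast, each gene's log2 CPM correlated with the mean of the other 9 at a Pearson r of 0.879 (Cldn5) to 0.990 (Tie1 and Cdh5). With the group means removed, the r of pairs of members had a median of 0.477 and ran from -0.333 to 0.867. Over the 8 epithelial libraries, where the low libraries set most of the spread, Tek had the lowest r with the others, 0.607, and Tie1 the highest, 0.993. The non-member genes most like the mean of the members in wall were Mmrn2 (0.986), Zfp423 and Rcn1 (0.981 each), Plod1 (0.980) and Timp2 (0.978). Mmrn2 was at 12.7 ± 3.68 TPM in DSS-treated caNrf2 wall against 3.58 ± 0.732 TPM untreated, and at 12.7 ± 0.956 TPM in DSS-treated control wall against 3.54 ± 0.991 TPM untreated. In epithelial cells the most alike were Igfbp4 (0.995), Tagln (0.989), S1pr1 (0.988), Adamts10 (0.986) and Sepn1 (0.985).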

How the data were processed

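The deposited files give, per the file headers, estimated (expected) read counts, TPM and FPKM for 30383 RefSeq transcripts in each of 24 libraries. The submitters' processing notes name RSEM 1.2.11, FastQC and the build mm10. Neither aligner nor strand setting is stated in the labels used here, so sense and antisense reads over the same bases cannot be told apart. The authors' estimated counts were summed per symbol (23329 symbols) and rounded. TPM as deposited by the authors was summed per symbol for levels, and FPKM as deposited by the authors was the alternative. TPM is a share of each library's transcripts, so ratios of TPM differ from fitted folds: Tek had a TPM ratio of DSS to untreated of 3.96 and a fitted fold of 3.45 in caNrf2 wall.

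Tests used edgeR 4.0.16 (TMM scaling, filterByExpr, quasi-likelihood F test, Benjamini-Hochberg adjustment over all genes tested, threshold 0.05) in R 4.3.3 with limma 3.58.1. The fits covered 16 wall libraries (16074 genes), 8 epithelial libraries (12941 genes), and 8 epithelial with 8 untreated wall libraries (15073 genes). Standard errors were derived from the F statistic, as the size of the fitted log2 change over the root of F, and 95% intervals from these and the t distribution with the fit's degrees of freedom. Intervals and floors cover counting error or library spread only. DESeq2 1.42.0, other scaling, no filter, a replicate block and left-out libraries were alternatives. Of 36 library pairs within groups none agreed within sampling noise (lowest chi-square per gene 10.5).

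The members and gene lists were chosen with earlier results of these data known. Named genes are all members, the 2 genes of each list with the smallest p for DSS in control wall and the 1 with the highest TPM in untreated wall, and the 5 most alike genes per tissue. One gene that the rule picks is not reported here. Genes outside this rule, apart from Nfe2l2, are marked in the text as named after their values were seen. In comparisons without calls, single members are named only for the 3 smallest p, a restriction added after the values were seen. The steps were tested on simulated counts.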

Additional observations from a re-analysis of the deposited data

Results flagged for a closer look

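Emcn in untreated caNrf2 wall replicate 1 was at 8.413 CPM, while the other 3 libraries of that group were at 7.224, 7.271 and 7.33 CPM. The gap to the nearest library was 0.911 of the group's range, above Dixon's critical value for 4 values. It was the single case among 60 groups of 4 member values, and chance alone marks about 1 in 20 such groups. Without that library the DSS response of Emcn in caNrf2 wall was 0.79 ± 0.18 (edgeR's adjusted p = 0.00434).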

How the results depend on the processing

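The DSS calls held for 10 of 10 genes in each genotype under all 15 alternatives, with log2 fold changes of 0.64 to 1.95 in caNrf2 wall and 1.0 to 2.12 in control wall. With the replicate number as a block the counts were 10 in each genotype, 0 for each genotype comparison, and 2 (caNrf2) and 4 (control) for epithelial cells against wall. Same-numbered wall libraries showed little shared deviation (correlations from -0.37 to 0.31, 2 of 24 pairs above 0.1). With 4 libraries per group, weak correlations cannot exclude that the numbers pair samples, so this was left undecided. The block changed no call on the members. Calls of genotype effects were 0 under every alternative run, with adjusted p no lower than 0.0618 for the named genes. For epithelial cells against wall in caNrf2 mice, the count of 2 became 5 without epithelial caNrf2 replicate 1 and control replicate 3. With single libraries left out it ran from 1 to 5. The control count ran from 3 to 6 over all alternatives. Calls over all genes moved too. In control mice edgeR called 4919 of 15370 genes without epithelial replicate 1 (2273 higher, the rest lower). Without epithelial replicate 2 it called 5153 of 15378 (2352 higher, the rest lower). Kdr in caNrf2 mice reversed to 0.02 without both libraries, and ran from -1.18 to 0.02 with single libraries left out. For the other 35 member values of the genotype comparisons, whose genes are not named singly there, 67 of 615 recomputed values changed sign and 0 became called. With DSS, leukocyte calls fell to as few as 2 in caNrf2 wall and 3 in control wall, smooth muscle calls to 3 and 2, enteric glia calls to 5 in caNrf2 wall, and platelet and red cell calls to 4 in each genotype. The cause of these changes was not tested. By FPKM the order of levels kept 8 of 10 ranks in untreated caNrf2 wall and all 10 in the other groups. The epithelial libraries, with 105 to 1197 member counts, limit any statement on genotype there.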
